A study of Mus musculus with 9 samples.

Results

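The distal ends of the mouse autosomes were examined in primordial germ cells, as the 1 kb windows that start within 2 Mb of the last CpG position listed on each of chromosomes 1 to 19. They comprise 36728 windows with at least 1 listed CpG, of 2464991 such windows on the autosomes, X and Y. Position alone set their limits, but earlier results of these data were known when they were chosen. The other 2280451 autosomal windows, the rest of the same chromosomes, served as the control. The study compared female C57BL/6 embryos at embryonic day 13.5 that were Tet1-null (Tet1 -/-, 5 libraries from 1400 to 4700 cells) with wild-type embryos (WT, 4 libraries from 1575 to 5251 cells), by whole-genome bisulfite sequencing of their primordial germ cells. Bisulfite conversion used a Sigma kit for 2 and a Zymo kit for 3 of the Tet1-null libraries, and each kit for 2 of the WT libraries. A pair of Tet1-null libraries list the same cell number and a pair of WT titles carry a suffix, and the labels do not say whether any of the libraries share cells. The values came as 1 table per genotype in which the libraries are pooled, so kit, sequencing run and embryo cannot be told apart from genotype, no difference between the pools has a replicate check, and the deletion of Tet1 was not checked in these data.

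Mouse autosomes have their centromere at one end, so each has a single long arm whose far end meets the telomere. The DNA next to telomeres, the subtelomere, often holds repeated and recently duplicated sequence. In somatic cells it is usually methylated at CpG sites by the DNA methyltransferases. Primordial germ cells, from which eggs and sperm later form, have shed nearly all CpG methylation by this stage, and some repeated sequences are known to keep part of it. Tet1 encodes a dioxygenase that oxidises 5-methylcytosine. Bisulfite sequencing reads 5-methylcytosine and 5-hydroxymethylcytosine alike.

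A level is the number of methylated reads divided by all reads over the CpG sites of a set of windows, in percent. The distal windows held 676350 reads in the Tet1-null pool and 436245 in the WT pool, a mean of 2.88 and 2.22 reads per listed site, against 2.85 and 2.21 in the rest of the chromosomes. They held 7.31 listed CpG positions per window, against 7.76 in the rest. Windows with a mean of over 8 reads per listed site in either pool, called deep below, made up 0.321% of the distal windows and 0.320% of the rest. Mitochondrial DNA, often used to gauge incomplete conversion, read 1.29% in the Tet1-null pool and 1.66% in the WT pool. Intervals are 95% intervals for counting error (Wilson for a level, Newcombe for a difference). They treat reads as independent, which neighbouring sites on a read and PCR copies are not, so they are too narrow.

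Methylation was low at the chromosome ends, and slightly higher than along the rest of the autosomes. In the Tet1-null pool the distal windows were at 4.39% (4.34 to 4.44%) and the rest at 4.08% (4.07 to 4.08%), a difference of 0.311 points (0.263 to 0.361). In the WT pool they were at 3.71% (3.66 to 3.77%) and 3.40% (3.40 to 3.41%), a difference of 0.309 points (0.253 to 0.366). Chromosome ends did not share one direction. The distal level was the higher one on 12 of 19 chromosomes in the Tet1-null pool, with differences from -1.07 to 4.71 points, and on 14 of 19 in the WT pool, from -0.831 to 3.53 points. Averaged over chromosomes the difference was 0.540 ± 1.29 points in the Tet1-null pool and 0.557 ± 1.08 points in the WT pool (SD over 19 chromosomes, which are not replicates), smaller than its spread. Without deep windows the difference of the summed levels was 0.109 points (0.0613 to 0.158) in the Tet1-null pool and 0.189 points (0.134 to 0.245) in the WT pool.

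The excess lay in the outermost part of the chromosomes. In the last 250 kb the level was 8.37% (8.18 to 8.57%) in the Tet1-null pool and 7.08% (6.86 to 7.31%) in the WT pool, 2.05 and 2.08 times that of the rest. From 250 to 500 kb the levels were 4.91% and 4.12%, and from 500 to 750 kb 4.29% and 3.67%. The step from 750 kb to 1 Mb was at 3.71% and 2.94%, below the level of the rest in both pools. The 4 steps from 1 to 2 Mb were at 3.80%, 4.05%, 3.45% and 3.22% in the Tet1-null pool, against 3.28%, 3.56%, 3.03% and 2.65% in the WT pool. The decline with distance was therefore steep from the outermost step to the next, smaller from there to 1 Mb, and uneven after that. From 250 kb to 2 Mb, all windows together were at 3.87% in the Tet1-null pool and 3.28% in the WT pool, differences from the rest of -0.205 points (-0.253 to -0.155) and -0.122 points (-0.178 to -0.0647). The higher level of the whole 2 Mb thus rested on its last 250 kb, which held 4490 of the 36728 windows.

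**Figure D1:**
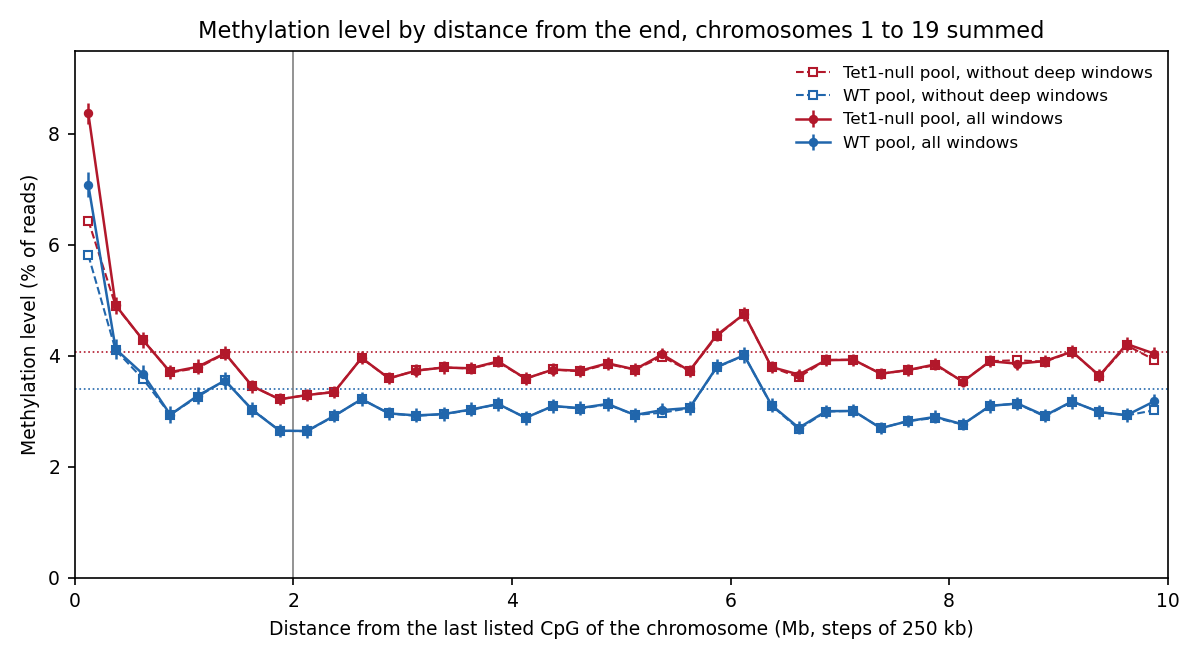
Methylation level (percent of reads) in 40 steps of 250 kb from the last listed CpG (distance in Mb), chromosomes 1 to 19 summed. Filled points with solid lines are all windows, with Wilson 95% intervals, open squares with dashed lines leave out deep windows, dotted lines give the level of the rest of the chromosomes, and the grey line marks 2 Mb. The outermost step stands at 8.37% in the Tet1-null pool and 7.08% in the WT pool. The step that starts at 750 kb lies below the rest in both pools. The windows from 2 to 4 Mb, at 3.68% and 2.98% together, lie below it as well.

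Part of the methylated reads of the last 250 kb lay in deep windows. They numbered 28 of 4490 there, 0.624% of windows, against 0.320% in the rest. From 250 to 500 kb the share was 0.488%, and in the 6 steps beyond it ranged from 0.0854% to 0.328%. Mean reads per listed site in the last 250 kb were 3.06 in the Tet1-null pool and 2.34 in the WT pool. Without deep windows the last 250 kb were at 6.44% (6.26 to 6.62%) in the Tet1-null pool and 5.82% (5.61 to 6.03%) in the WT pool, which is 2.40 points (2.23 to 2.58) and 2.46 points (2.26 to 2.68) above the rest. The other 7 steps changed little without deep windows, most in the WT pool between 500 and 750 kb, at 3.58% against 3.67% with them. In steps of 50 kb and without deep windows, the 3 outermost steps were at 6.58%, 7.42% and 8.41% in the Tet1-null pool, against 6.44%, 6.57% and 8.285% in the WT pool. The next steps, from 150 to 250 kb, were at 4.31% and 4.95% in the Tet1-null pool, against 3.58% and 3.81% in the WT pool. The 3 steps from 250 to 400 kb were higher again. They were at 5.68%, 5.86% and 5.94% in the Tet1-null pool, against 4.82%, 4.81% and 4.69% in the WT pool. Summed over chromosomes, the level was thus highest within 150 kb of the end in both pools. Chromosome 1 added to this, at 24.9% and 24.7% in its outermost 50 kb and 20.4% and 22.4% from 100 to 150 kb, deep windows included. The profile in steps of 50 kb was not repeated without that chromosome.

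Most chromosomes shared the excess of the last 250 kb over the rest, but its size ranged widely. The last 250 kb were more methylated than the rest of the same chromosome on 16 of 19 chromosomes in each pool, with a median difference of 2.53 points in the Tet1-null pool and 1.10 points in the WT pool. Without deep windows this held on 15 chromosomes in the Tet1-null pool and 16 in the WT pool, with medians of 1.22 and 1.14 points. With all windows, the last 250 kb exceeded the stretch from 250 kb to 2 Mb on 16 chromosomes in the Tet1-null pool and 14 in the WT pool. The last 250 kb of chromosome 7 were below its rest in both pools, at 3.31% against 4.21% in the Tet1-null pool and 2.75% against 3.62% in the WT pool. On chromosome 17 they were at 3.98% against 4.18% and at 3.43% against 3.62%. Chromosome 15 was at 3.86% against 4.02% in the Tet1-null pool and at 4.11% against 3.28% in the WT pool, and chromosome 9 was below its rest in the WT pool alone. When each chromosome was cut into tiles of 250 kb counted from its end, and tiles with under 500 reads in either pool were left out, the outermost tile was among the highest 10% of its chromosome on 11 of 19 chromosomes in the Tet1-null pool and 9 of 19 in the WT pool, and among the highest 25% on 14 of 19 in each. The distal tile of 2 Mb was among the highest 10% on 2 of 19 chromosomes in each pool, and among the highest 25% on 9 in the Tet1-null pool and 8 in the WT pool.

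**Figure D2:**
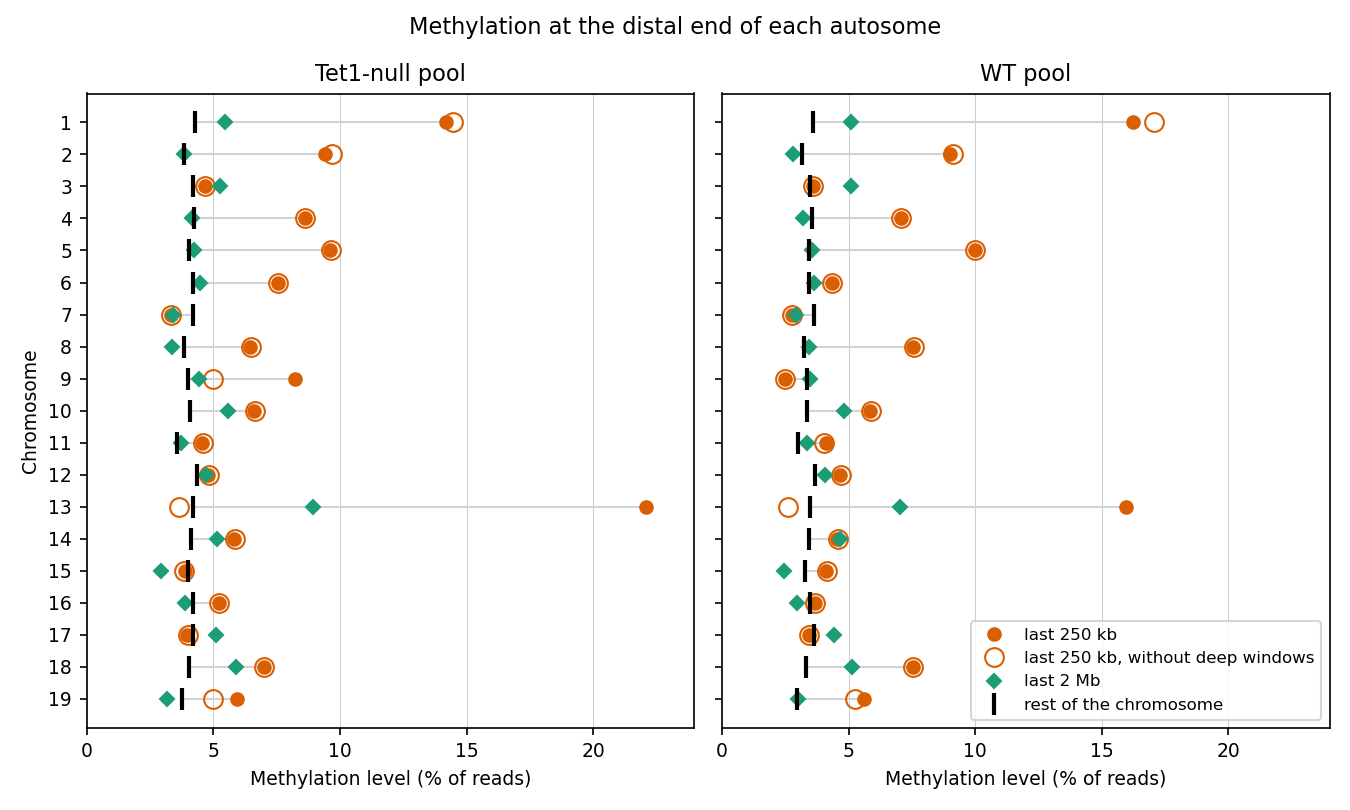
Methylation level (percent of reads) at the distal end of each autosome, Tet1-null pool on the left and WT pool on the right. Filled circles are the last 250 kb, open circles the last 250 kb without deep windows, diamonds the last 2 Mb and black bars the rest of the chromosome. Chromosome 13 reaches 22.1% and 15.9% in its last 250 kb and falls back to 3.65% and 2.59% without deep windows, whereas chromosome 1 stays at 14.5% and 17.05%.

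The ends with the most methylated last 250 kb were those of chromosomes 13 and 1, and they differed in kind. On chromosome 13 the last 250 kb were at 22.1% in the Tet1-null pool and 15.9% in the WT pool, and 8 deep windows at the very end of the listed sequence (mm9, chr13:120277001-120285000) held most of the methylated reads. These windows were at 49.2% (1597 of 3245 reads) in the Tet1-null pool and 39.7% (731 of 1839 reads) in the WT pool, with a mean of 15.0 and 9.43 reads per site. The other 241 windows there were at 3.65% and 2.59%, below the rest of chromosome 13. The single window chr13:120277001-120278000, with 101 listed positions, held 947 methylated reads of 1404 in the Tet1-null pool and 324 of 537 in the WT pool. Chromosome 13 supplied 27.3% of the methylated reads of the last 250 kb of all autosomes in the Tet1-null pool and 23.3% in the WT pool, from 10.3% of the reads in each. Without it the last 250 kb were at 6.79% in the Tet1-null pool and 6.06% in the WT pool.

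On chromosome 1 the methylation of the last 250 kb was spread over many windows of ordinary depth. The level was 14.2% (13.1 to 15.3%) in the Tet1-null pool and 16.2% (14.9 to 17.7%) in the WT pool, and 14.5% and 17.05% without its 1 deep window. Of the windows with at least 10 reads, 29 of 133 were at 20% or more in the Tet1-null pool and 28 of 85 in the WT pool. The 5 windows with the most methylated reads in a pool held 31.5% of them in the Tet1-null pool and 31.3% in the WT pool, against 79.2% and 80.1% on chromosome 13. The level followed a patchwork within these 250 kb. The outermost 50 kb were at 24.9% and 24.7%, the stretch from 100 to 150 kb was at 20.4% and 22.4%, and the stretch from 150 to 200 kb was at 1.90% and 3.30%. Neighbouring windows chr1:197090001-197091000 and chr1:197091001-197092000 were at 50.6% and 43.6% in the Tet1-null pool (42 of 83 and 48 of 110 reads) and at 45.7% and 59.4% in the WT pool (16 of 35 and 57 of 96 reads). Without chromosomes 1 and 13 the last 250 kb of the other autosomes were still 2.31 points (2.13 to 2.50) above the rest in the Tet1-null pool and 2.04 points (1.83 to 2.26) above it in the WT pool.

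Windows were not placed on genes, because no annotation of mm9 was used here. For orientation only, RefSeq's gene order in another build, GRCm38.p6, ends with AF067061, BC147527 and Tcstv3 on chromosome 13, the last from a family expressed in the cleavage-stage mouse embryo. On chromosome 1 it ends with Cd34, Cd46, Cr1l and Cr2, of which the last 3 are complement regulators or receptors, and on chromosome 10 with Vmn2r84, Vmn2r85, Vmn2r86 and Vmn2r87, vomeronasal receptor genes that serve pheromone detection. On chromosome 4 it ends with Noc2l, Samd11 and Vmn2r129, and on chromosome 15 with Glycam1 and Mucl2. These chromosomes were picked after their levels were seen, and the order of genes in another build does not place any window of mm9 on a gene.

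The excess of the last 250 kb remained when CpG density was matched. The windows there had fewer listed positions than the rest (6.38 against 7.76 per window), and the share of windows with 1 to 9 positions was 82.8% against 72.6%. With the rest weighted to the same density classes, the last 250 kb were 4.36 points higher (4.17 to 4.55) in the Tet1-null pool and 3.68 points higher (3.46 to 3.91) in the WT pool, and 2.51 and 2.53 points higher without deep windows. For the whole 2 Mb the difference at matched density was 0.344 points (0.295 to 0.393) in the Tet1-null pool and 0.306 points (0.250 to 0.363) in the WT pool, close to the unmatched values.

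The excess of the last 250 kb was small in windows with 1 to 9 positions and larger in those with 10 to 39. Without deep windows, those with 1 to 9 positions were at 3.84% against 3.35% in the rest in the Tet1-null pool, and at 3.58% against 2.89% in the WT pool. Windows with 10 to 19 positions were at 9.17% against 4.31% in the Tet1-null pool and at 7.995% against 3.44% in the WT pool. Windows with 20 to 39 positions reached 13.4% against 6.72% in the Tet1-null pool and 13.7% against 5.54% in the WT pool. CpG-dense windows were few there, and in each dense class 1 window set the level. The 15 windows with 40 to 59 positions were at 6.28% against 3.12% in the Tet1-null pool and at 9.96% against 3.16% in the WT pool. Without chr1:197091001-197092000, described above, the other 14 were at 2.70% in the Tet1-null pool and 2.95% in the WT pool, near the rest. The 10 windows with 60 or more were at 9.60% against 2.06% in the Tet1-null pool and at 5.82% against 2.57% in the WT pool. Of their methylated reads, chr4:155511001-155512000 held 111 of 134 in the Tet1-null pool and 18 of 27 in the WT pool. The other 9 were at 1.85% (23 of 1243 reads) in the Tet1-null pool and 2.17% (9 of 415 reads) in the WT pool, again near the rest. In both classes the window was left out of the last 250 kb only, which lowers that side by design. Leaving out the window with the most methylated reads in the same way kept the excess of the 3 sparser classes, at 0.461, 4.76 and 6.32 points in the Tet1-null pool and 0.666, 4.36 and 7.20 points in the WT pool.

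**Figure D3:**
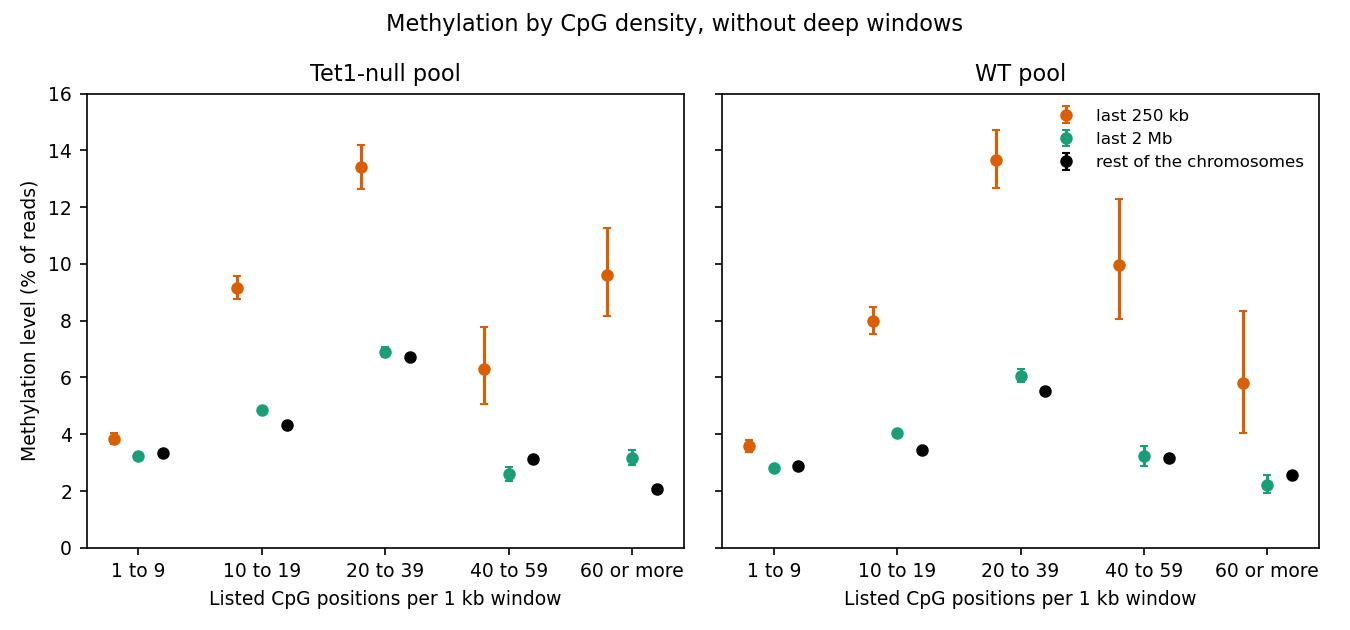
Methylation level (percent of reads) by the number of listed CpG positions per 1 kb window, without deep windows, Tet1-null pool on the left and WT pool on the right, with Wilson 95% intervals. The last 250 kb lie above the rest of the chromosomes by little in windows with 1 to 9 positions (3.84% against 3.35% in the Tet1-null pool). They lie above it by more in windows with 10 to 39. Their points for 40 to 59 and for 60 or more positions rest on 1 window each.

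The last 250 kb differed from the rest in how many windows were methylated at 20% or more. Among windows with at least 10 reads in a pool and without deep windows, 8.06% (7.09 to 9.14%) were at 20% or more in the Tet1-null pool and 8.47% (7.29 to 9.83%) in the WT pool, against 3.99% and 3.45% in the rest. From 250 kb to 2 Mb the shares were 3.75% and 3.39%. Windows at 0% made up 58.3% in the Tet1-null pool and 63.3% in the WT pool in the last 250 kb, against 60.7% and 68.4% in the rest, with more reads per window in the Tet1-null pool. The windows at 20% or more held 55.7% of the methylated reads of the last 250 kb in the Tet1-null pool and 60.6% in the WT pool, against 33.3% and 34.8% in the rest. Windows under 20% were at 3.39% there against 2.85% in the rest in the Tet1-null pool, and at 2.86% against 2.31% in the WT pool.

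**Figure D4:**
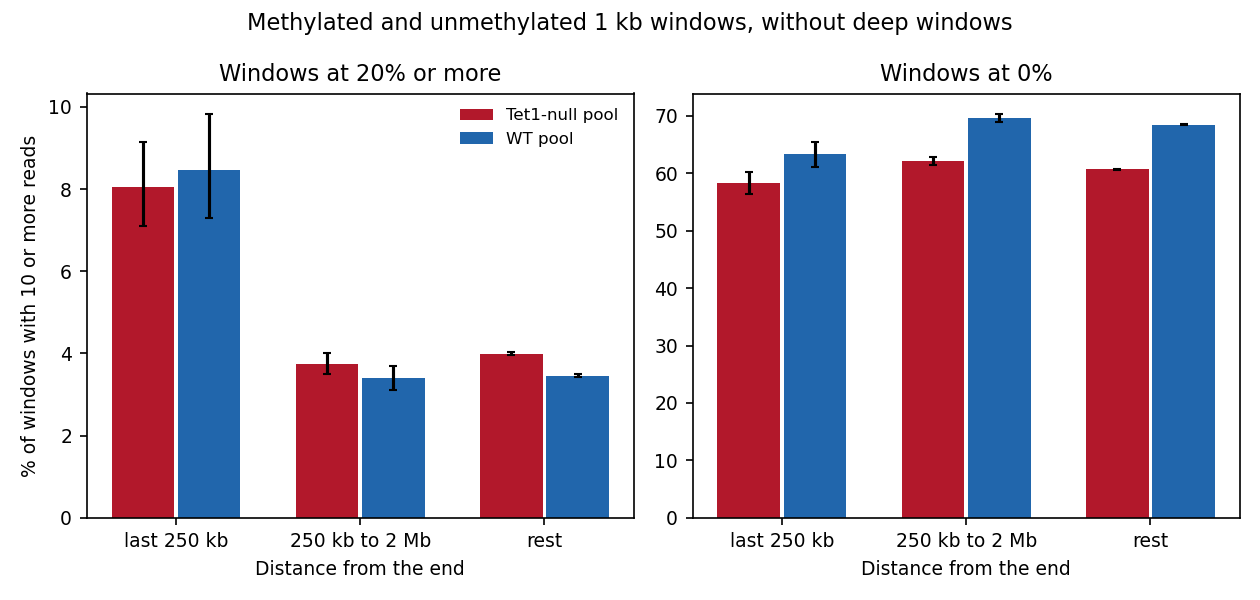
Share of 1 kb windows with at least 10 reads in a pool, without deep windows, that were at 20% or more (left) and at 0% (right), by distance from the chromosome end, Tet1-null pool in red and WT pool in blue, with Wilson 95% intervals. The share at 20% or more is 8.06% and 8.47% in the last 250 kb, against 3.99% and 3.45% in the rest.

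Over the whole 2 Mb, chromosomes 13, 18 and 10 had the most methylated ends and chromosomes 15, 19 and 8 the least in the Tet1-null pool. The end of chromosome 13 was at 8.92% in the Tet1-null pool and 7.02% in the WT pool, and at 4.204% and 3.70% without its 11 deep windows. Chromosome 18 was at 5.90% in the Tet1-null pool and 5.14% in the WT pool, and at 5.93% and 5.13% without deep windows. Chromosome 10 was at 5.56% and 4.80%, and at 5.50% and 4.77% without deep windows. On chromosome 18 the 4 outermost steps were all above the rest of that chromosome, at 7.02%, 7.17%, 9.24% and 7.06% in the Tet1-null pool, against 7.56%, 5.74%, 8.64% and 6.46% in the WT pool. On chromosome 10 the high steps started at 500, 1000 and 1250 kb from the end, with 11.5%, 10.7% and 10.5% in the Tet1-null pool, against 5.598%, 10.6% and 8.48% in the WT pool. The end of chromosome 15 was at 2.95% in the Tet1-null pool and 2.45% in the WT pool, differences of -1.07 and -0.831 points from the rest of that chromosome. Chromosome 19 was at 3.18% and 2.99%, and chromosome 8 at 3.36% and 3.45%. Ends with more listed CpG positions per window, from 4.25 on chromosome 17 to 13.9 on chromosome 4, had lower levels. Across the 19 ends, Pearson's r of density and level was -0.464 in the Tet1-null pool and -0.601 in the WT pool, and Spearman's rho was -0.654 and -0.754. The levels of both pools followed each other over the 19 ends, with a Pearson's r of 0.958 and a Spearman's rho of 0.933. These are descriptions across chromosomes of the same libraries.

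The Tet1-null pool was the more methylated one at the chromosome ends, by a margin close to that elsewhere. The difference between the pools was 0.676 points (0.602 to 0.751) in the distal windows and 0.674 points (0.665 to 0.683) in the rest, and the first minus the second was 0.00228 points (-0.0728 to 0.0770), so that 0 lay inside the interval. As a ratio, the Tet1-null level was 1.18 times the WT level in the distal windows and 1.198 times in the rest. Without deep windows the difference between pools was 0.604 points in the distal windows and 0.684 in the rest, and the first minus the second was -0.0798 points (-0.153 to -0.00646). The mitochondrial level differed by -0.371 points (-0.537 to -0.211), the opposite direction; its part in the result was not tested. The distal level was higher in the Tet1-null pool on 18 of 19 chromosomes, with a counting interval above 0 on 15. The spread of this difference over chromosomes was 0.424 points (SD) at the ends and 0.0687 points in the rest. The rest of a chromosome holds far more windows and reads than its end, and the cause of the wider spread was not tested.

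In the last 250 kb the difference between the pools was 1.29 points (0.989 to 1.59), 0.614 points (0.314 to 0.911) larger than in the rest. Neither leaving out chromosome 13 nor leaving out deep windows kept that surplus. Without chromosome 13 the difference was 0.730 points (0.439 to 1.02), 0.0587 points from that of the rest, with an interval of -0.233 to 0.348. Without deep windows it was 0.623 points (0.344 to 0.899), and that of the rest taken from it left -0.0611 points, with an interval of -0.340 to 0.215. Without chromosomes 1 and 13, however, the difference was 0.938 points (0.650 to 1.22). The rest of the remaining chromosomes was at 4.05% in the Tet1-null pool and 3.38% in the WT pool. As a ratio the last 250 kb were at 1.18 times the WT level with all windows and at 1.11 times without deep ones. The level there was the higher one in the Tet1-null pool on 14 of 19 chromosomes. The counting interval lay above 0 on 5 chromosomes and below 0 on 1, chromosome 1. In the 8 steps together the difference ranged from 0.427 points between 1500 and 1750 kb to 1.29 points in the outermost step.

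The difference between the pools varied in size from end to end. The largest differences over 2 Mb were on chromosome 13 (1.91 points, 1.43 to 2.38), chromosome 2 (1.03 points, 0.780 to 1.27) and chromosome 9 (0.957 points, 0.642 to 1.27), and that of chromosome 13 was 0.500 points without deep windows. The smallest were on chromosome 8 (-0.0869 points, -0.423 to 0.242), chromosome 19 (0.188 points, -0.130 to 0.500) and chromosome 3 (0.191 points, -0.295 to 0.667), whose intervals included 0. Of the 152 steps of 250 kb on single chromosomes, each with 1908 to 9929 reads in the Tet1-null pool and 1180 to 6069 in the WT pool, 117 were higher in the Tet1-null pool. Of all 152, intervals lay above 0 for 49 and below 0 for 3.

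The largest differences among these steps were those of chromosome 13 in the last 250 kb (6.15 points), chromosome 10 from 500 to 750 kb (5.95 points) and chromosome 9 in the last 250 kb (5.74 points). The step on chromosome 10 was at 11.5% in the Tet1-null pool and 5.598% in the WT pool. Its window with the most methylated reads in the Tet1-null pool was chr10:129362001-129363000. It held 56 methylated reads of 95 in the Tet1-null pool and 0 of 6 in the WT pool, so the WT level of that window rested on few reads. The whole step held 292 methylated reads in the Tet1-null pool, so most lay in other windows. They were still concentrated: the 5 windows with the most methylated reads in a pool, of 217, held 46.9% in the Tet1-null pool and 35.6% in the WT pool. The step on chromosome 9 was at 8.25% in the Tet1-null pool and 2.51% in the WT pool, and at 4.97% and 2.49% without 4 deep windows, which were deep in the Tet1-null pool only. Among steps lower in the Tet1-null pool, the last 250 kb of chromosome 1 differed by -2.05 points (-3.87 to -0.262), those of chromosome 8 by -1.11 points (-2.70 to 0.427), and the stretch from 500 to 750 kb of chromosome 3 by -1.06 points (-2.79 to 0.577). The other intervals below 0 were those of chromosome 11 from 1500 to 1750 kb (-0.889 points, -1.63 to -0.177) and chromosome 9 from 500 to 750 kb (-0.882 points, -1.68 to -0.118), picked out for their intervals. Without deep windows the step on chromosome 9 was at 2.87% in the Tet1-null pool and 2.67% in the WT pool, so that its direction turned.

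**Figure D5:**
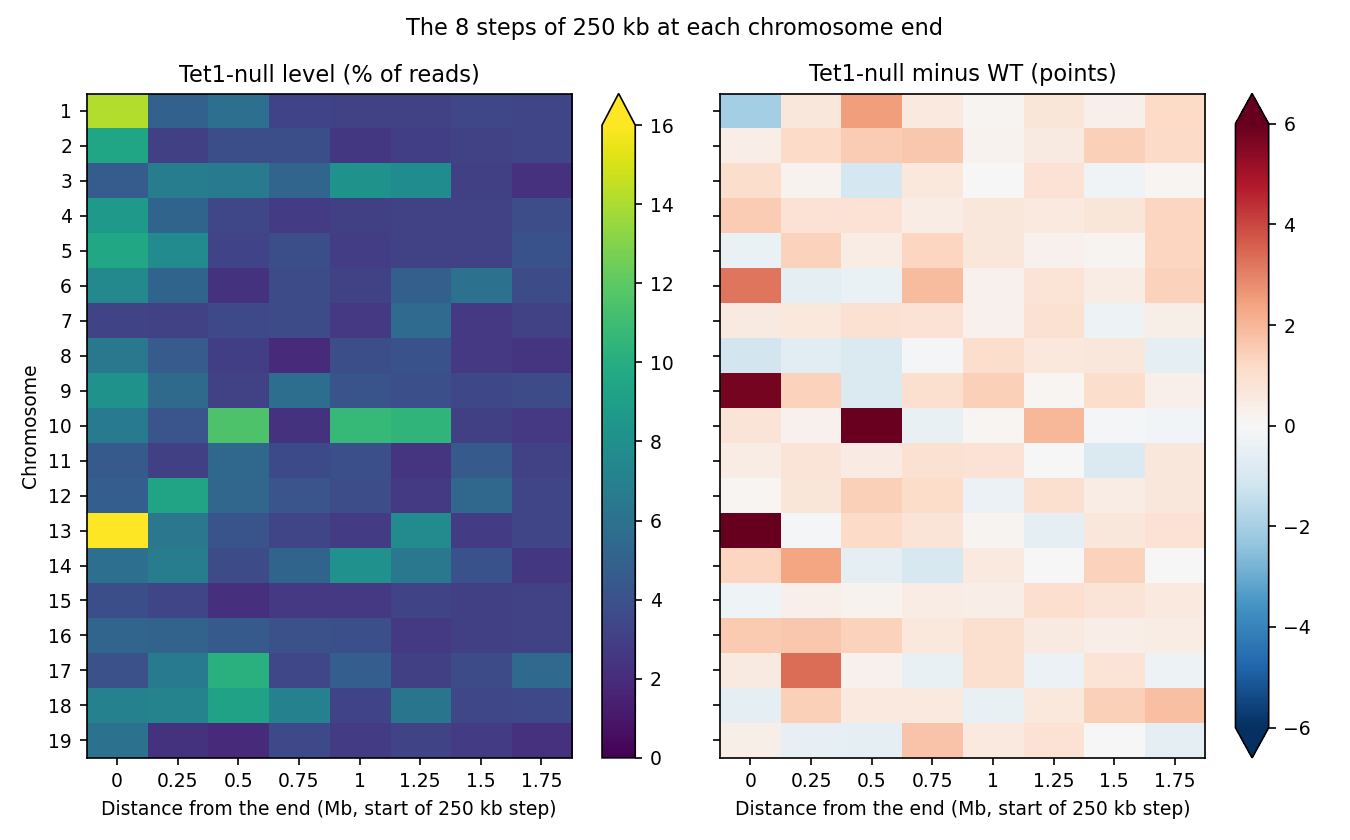
The 8 steps of 250 kb at the end of each autosome, with the distance at which a step starts in Mb: the Tet1-null level in percent of reads (left, colours end at 16) and the Tet1-null minus WT difference in percentage points (right, colours end at -6 and 6). The outermost step of chromosome 13, at 22.1%, is the highest, most steps are somewhat higher in the Tet1-null pool, and the outermost step of chromosome 1 is lower by 2.05 points.

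By CpG density, the difference between pools in the distal windows was 0.468 points in windows with 1 to 9 positions, 0.805 points with 10 to 19 and 0.715 points (0.420 to 1.01) with 20 to 39. The rest had 0.458, 0.866 and 1.19 points (1.15 to 1.23) in these classes. In windows with 40 to 59 positions the distal levels were 2.58% in the Tet1-null pool and 3.22% in the WT pool, a difference of -0.637 points (-1.08 to -0.217), against -0.0692 points in the rest. Without chr1:197091001-197092000 it was -0.328 points (-0.735 to 0.0602), with 0 inside the interval. The 130 distal windows with 60 or more positions were at 8.21% in the Tet1-null pool and 5.91% in the WT pool, and at 3.16% and 2.22% without 1 deep window on chromosome 13. Their difference without it, 0.938 points (0.505 to 1.35), was opposite in sign to the -0.515 points (-0.585 to -0.446) of equally dense windows in the rest. Leaving out chr4:155511001-155512000 as well reduced it to 0.501 points (0.0961 to 0.883).

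Tests of single windows called few distal windows. A two-sided Fisher's exact test was applied to the 372074 windows that had 5 or more shared positions and 20 or more reads per pool, with p adjusted over all of them by the Benjamini-Hochberg method. It sets 2 pools of reads against each other and cannot speak for the genotypes. A call needed an adjusted p under 0.05 and 20 points or more between pools. Of 5114 distal windows tested, 6 were higher in the Tet1-null pool (0.117%) and 2 lower (0.0391%), against 0.097% and 0.0637% of all windows tested, so the shares of the whole 2 Mb rested on few windows and were of the same order as those of the genome. At an unadjusted p under 0.05, 130 distal windows were higher (2.54%) and 110 lower (2.15%), against 2.55% and 1.86% in the rest. Of the 8 called, 4 higher ones and 1 lower one were among the 452 windows tested in the last 250 kb, which is 0.885% and 0.221%, against 0.0975% and 0.0608% in the rest. At an unadjusted p under 0.05 the shares there were 5.09% and 4.204%, both above those of the rest. Of the windows called higher there, chr9:123844001-123845000 and chr13:120284001-120285000 were deep. Windows at 20% or more were also more frequent in the last 250 kb, and their part in these calls was not tested.

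The windows called higher lay on 6 chromosomes. The window chr3:159417001-159418000 held 25 methylated reads of 47 in the Tet1-null pool and 0 of 24 in the WT pool (Fisher's exact test, adjusted p = 0.00458). The window chr10:129251001-129252000 had 11 methylated of 22 reads against 0 of 26 (Fisher's exact test, adjusted p = 0.0265), and chr17:95007001-95008000 had 26 of 64 against 1 of 39 (Fisher's exact test, adjusted p = 0.00852). The window chr4:155511001-155512000, with 67 positions, had 111 of 153 against 18 of 49 (Fisher's exact test, adjusted p = 0.0147). Its outer neighbour, chr4:155512001-155513000, was methylated in both pools, with 34 of 56 and 49 of 70 reads. The deep window chr9:123844001-123845000 had 42 of 120 against 0 of 31 (Fisher's exact test, adjusted p = 0.0198). The last listed window of chromosome 13, chr13:120284001-120285000, also deep, had 122 of 208 against 53 of 174 (Fisher's exact test, adjusted p = 0.000212). The windows called lower were chr10:128221001-128222000, with 5 of 53 reads against 16 of 30 (Fisher's exact test, adjusted p = 0.0267), and chr4:155592001-155593000, with 1 of 71 against 12 of 38 (Fisher's exact test, adjusted p = 0.0109). With reads thinned to equal depth between pools, the chromosome 13 window was the only one of these 8 still called, 5 others lost the call, and 2 could not be tested. With a lower minimum of 3 positions and 10 reads, and so more windows tested, chr10:128221001-128222000 and chr10:129251001-129252000 lost the call (Fisher's exact test, adjusted p = 0.0582 and 0.0579).

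Windows at 50% methylation or more were somewhat more frequent in the distal 2 Mb than along the rest of the chromosomes. Of the distal windows tested, 42 were at 50% or more in the Tet1-null pool (0.821%, 0.608 to 1.11%) and 47 in the WT pool (0.919%, 0.692 to 1.22%), against 0.547% and 0.566% in the rest. In the last 250 kb the shares were 1.77% (8 of 452, 0.900 to 3.45%) and 3.10% (14 of 452, 1.85 to 5.13%). From 250 kb to 2 Mb they were 0.729% (0.522 to 1.02%) and 0.708% (0.504 to 0.992%). The shares of the rest lay inside these intervals. Both pools passed 50% in 19 distal windows on 13 chromosomes, which is 45.2% of the Tet1-null list and 40.4% of the WT list, and 17 of them lay beyond the last 250 kb. The 2 in the last 250 kb were 25% of the Tet1-null list and 14.3% of the WT list there, and 1 of them, chr13:120277001-120278000, was deep. In the rest of the autosomes the overlap was 40.1% of the Tet1-null list and 38.7% of the WT list. The 3 with the most reads, leaving out deep windows, were chr4:155297001-155298000 with 53 methylated reads of 101 in the Tet1-null pool and 28 of 52 in the WT pool, chr7:151042001-151043000 with 54 of 83 and 32 of 49, and chr4:155512001-155513000, given above.

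The distal ends were less methylated than the opposite, centromere-proximal ends. The distal 2 Mb were at 4.39% against 6.22% in the first 2 Mb of listed sequence in the Tet1-null pool, and at 3.71% against 5.76% in the WT pool. These differences were -1.83 points (-1.91 to -1.76) in the Tet1-null pool and -2.04 points (-2.13 to -1.96) in the WT pool. Deep windows were fewer in the distal 2 Mb, at 0.321% against 0.866%. Without deep windows the distal 2 Mb were still lower, at 4.15% against 5.64% in the Tet1-null pool and at 3.54% against 5.13% in the WT pool.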

How the data were processed

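Whole-genome bisulfite sequencing reads of 5 Tet1-null and 4 WT libraries were pooled into 1 table per genotype by the authors. Each deposited table lists CpG sites with the fraction of reads methylated and the count of reads, all marked as 1 strand. The submitters' processing notes name mm9 and bedtools. Aligner and duplicate handling were not given in the sources used here. The authors also deposited a filter that discards a read when more than 1.2% of its bases are cytosines outside CpG, which can lower levels. Methylated reads were the fraction times the count, whole at 100% of sites within 0.0005 per read. Coordinates are counted from 1 on reading the tables as BED; this was not checked against a genome. Sums, intervals and tests used Python 3.11.15, numpy 2.4.6, pandas 2.3.3, scipy 1.17.1, numba 0.67.0 and matplotlib 3.10.9.

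Every window entered the levels, with no minimum of reads; the Fisher test needed 5 positions and 20 reads, and was tested on simulated data. With no molecular identifiers, PCR copies count as separate reads. Differences of differences combined the intervals of both parts. The members and the comparisons were chosen with earlier results of these data known. Windows named were the 5 largest called rises and falls and the 3 deepest retained windows without excess depth, with the 3 most extreme ends and steps; chr13:120284001-120285000, the windows on chromosomes 1, 10 and 13 described within a step, the steps on chromosomes 9 and 11 with intervals below 0, and the gene order were chosen after their values were seen. Alternatives changed the depth, site, length, control and weighting choices. Genes, promoters and repeats were not analysed here.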

Additional observations from a re-analysis of the deposited data

Results flagged for a closer look

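Signal outside the autosomal comparisons appeared at the end of the X. Its distal 2 Mb were at 18.7% in the Tet1-null pool and 15.8% in the WT pool, against 5.85% and 5.51% in the rest of the X, and at 4.04% and 3.31% without 43 deep windows. The part of misplaced or collapsed copies in this was not tested. The mitochondrial genome was at 1.29% in the Tet1-null pool and 1.66% in the WT pool.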

How the results depend on the processing

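Values follow as distal minus rest, the same at matched density, and last 250 kb minus rest, in points, each for the Tet1-null and then the WT pool. Without deep windows they were 0.109 and 0.189, 0.151 and 0.203, and 2.40 and 2.46. Restricting sites to 3 or more reads per pool gave 0.795 and 0.495, 0.812 and 0.480, and 8.21 and 5.96. With chromosomes weighted equally they were 0.540 and 0.557, 0.707 and 0.674, and 3.39 and 3.05. Against a control of 2 to 6 Mb from the end they were 0.620 and 0.658, 0.788 and 0.709, and 4.60 and 4.03. For the last 1 Mb the first 4 values were 1.24 and 1.04, and 1.35 and 1.09. The direction reversed for the last 3 Mb (-0.0222 and -0.00128, and -0.0793 and -0.0648 at matched density) and without the last 250 kb (-0.205 and -0.122, and -0.177 and -0.126), since both change the windows included. The mean of site levels gave 0.165, 0.213 and 3.21 in the Tet1-null pool and 3.15 for the last 250 kb in the WT pool, and sites listed in both pools gave 4.68 for the last 250 kb in the Tet1-null pool. Leaving out one chromosome gave 0.101 to 0.429 in the Tet1-null pool and 0.155 to 0.404 in the WT pool, 0.123 to 0.490 and 0.146 to 0.421 at matched density, and 2.72 to 4.69 and 2.66 to 4.02 for the last 250 kb. The lowest values were those without chromosome 13, and the highest those without chromosome 15 or, for the last 250 kb, chromosome 7. Without chromosomes 1 and 13 the last 250 kb gave 2.31 and 2.04; this setting and the one without chromosome 13 were chosen after seeing the data.

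The difference between pools in the distal windows was 0.961 with sites of 3 or more reads, 0.872 for the last 1 Mb and 0.591 without the last 250 kb. Distal minus rest, that difference was -0.0798 without deep windows, 0.2999 with sites of 3 or more reads, -0.114 as the mean of site levels, 0.198 for the last 1 Mb and -0.0829 without the last 250 kb. Thinned reads gave 2 windows called higher, of which 1 is among the 8 named, and 0 lower, with fewer windows tested; 10 positions and 40 reads gave 0 lower. An alternative chosen after seeing the data left out the window with the most methylated reads. It was left out of the last 250 kb only, which lowers that side by design. The last 250 kb minus the rest was then -0.414 and -0.204 points for 40 to 59 positions, and -0.208 and -0.405 points for 60 or more. At 40% or more, the share of windows was 1.70% in the Tet1-null pool and 1.66% in the WT pool. Where not given above, the cause was not tested. A control without the first 2 Mb changed no direction or call.

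No paired analysis was possible because each genotype is 1 pooled table, which also prevents leaving out a library. At a mean of 2.85 and 2.21 reads per site, single windows rest on few reads, and intervals cover counting error only.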
